A study of Mus musculus with 6 samples.

Results

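Molecular chaperones outside the HSP70 family were followed in mouse CD4+ T cells that had been cultured under T helper 1 (Th1) conditions, in the absence or presence of idelalisib, which blocks phosphoinositide 3-kinase delta. The set holds 80 of the 54532 genes in the count table. They were chosen by symbol among genes that the table lists as protein-coding: the J-proteins (Dnaja, Dnajb and Dnajc), the small heat shock proteins (Hspb), HSP90, the cytosolic chaperonin CCT (Tcp1 and Cct2 to Cct8), the mitochondrial chaperonin (Hspd1 and Hspe1), the Bag genes, Hsph1, Stip1 and the heat shock factors Hsf1 to Hsf5. The rule itself uses no measured value, but the choice was made with earlier results of these data known. The control group was CD4+ T cells from C57BL/6 spleens kept for 72 h in Th1 culture, and the idelalisib group was the same culture with the drug added, with 3 libraries in each group. The sources used here give neither the dose of idelalisib nor whether control cultures received its solvent. The labels call the cultures biological replicates without saying whether they came from separate mice, so p-values rest on the variation among cultures alone and that variation may be technical.

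Chaperones help other proteins reach and keep their folded shape. J-proteins bind unfolded clients, hand them to HSP70 and trigger its ATPase, HSP110 and the Bag proteins make HSP70 release its nucleotide and client, and Stip1 (also called HOP) passes clients on to HSP90, which in T cells keeps kinases such as Lck mature. CCT is a ring of 8 related subunits that folds actin and tubulin, and Hspd1 with its lid Hspe1 forms the folding chamber of mitochondria. Under heat or other protein damage, heat shock factor 1 binds heat shock elements, which are inverted repeats of the unit GAA, and raises the transcription of many of these genes.

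Total counts ranged from 13372318 to 16770452 per library, and levels are given as CPM, counts per 1000000 reads of a library after scaling. Correlations of log2 CPM were 0.983 to 0.990 within groups and 0.950 to 0.962 between them. Summed levels of 7 T cell markers were 2109 to 2296 CPM in control and 2062 to 2447 CPM in idelalisib libraries, with none at 0, against 4.43 to 7.86 and 7.24 to 9.50 CPM for the CD8 T cell markers. Markers of B cells, of which 5 of the 6 tested were called higher, summed to 7.60 to 8.79 CPM in control libraries. With idelalisib they summed to 14.4 to 17.3 CPM, and none of the 7 was at 0. Myeloid markers summed to 17.2 to 19.2 and 9.98 to 14.02 CPM, also with none of 7 at 0. Most of the myeloid sum was Cd68, the only 1 of these 7 genes with enough reads to be tested. Its mean fell with the drug from 16.7 to 10.5 CPM. Among the scarce others, Lyz2, Csf1r and Adgre1 had higher means with idelalisib, and Itgam, Clec7a and Fcgr3 lower ones. The fall of the myeloid sum is therefore that of Cd68 and not of the whole list. Markers of NK cells summed to 6.01 to 7.13 and 8.36 to 9.49 CPM with 1 of 3 at 0 throughout, of platelets to 5.19 to 6.21 and 8.69 to 16.6 CPM with none of 3 at 0, and of red cells to 1.14 to 1.78 and 1.67 to 2.57 CPM with 1 of 4 at 0. Ranges of the T cell, CD8 T cell and red cell sums overlapped between groups, and the other sums differed with the treatment. Even so, Cd3e and Cd3g, 2 of the 7 T cell markers (28.6%), were called higher. So was Cd8a, 1 of the 2 CD8 T cell markers (50%), beside 22.2% of all genes tested. The part of these cell types in the results below was not tested. In bulk RNA, fewer cells that express a gene and less of its RNA per cell cannot be told apart.

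Heat shock elements are a known promoter feature of many of these genes, so their promoters were read first. Windows of 300 bases around RefSeq gene starts on GRCm38.p6 were available for 65 of the 80 genes. Hsp90aa1, Hsp90ab1, Hsf1, Hsf4, Cct4 and Dnajc5 were among the genes without a window, so their promoters were not searched. They were searched on both strands for 3 alternating units, GAANNTTCNNGAA or TTCNNGAANNTTC, which are each other's reverse complement. A match was found for 4 genes, Hspd1, Hspe1, Hsph1 and Dnajb6, which is 6.15% of the 65, while 0.662% of all 27025 genes with a window, and 0.603% of all windows, had one. The shorter motifs of 2 units, GAANNTTC and TTCNNGAA, each its own reverse complement and each contained in the longer ones, occurred in 19 of the 65 genes (29.2%) and in 16.97% of all genes, or 15.1% of all windows. The windows of Dnajb1 held no match of either kind. A match describes the letters in these windows and shows no binding. Stretches that hold the matches are given below for the genes with 3 units, and for Hspb1, the gene with the largest fall, with its 2-unit matches; capitals mark the matched bases, written along each gene's own strand.
Hspe1, chr1:55088034-55088101, plus strand, 114 to 47 bases before its start: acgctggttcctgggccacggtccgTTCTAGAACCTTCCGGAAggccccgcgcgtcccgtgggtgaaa
Hsph1, chr5:149636280-149636308, minus strand, 7 to 35 bases after a start: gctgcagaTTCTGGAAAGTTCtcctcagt
Dnajb6, chr5:29735827-29735889, plus strand, 71 to 9 bases before a start: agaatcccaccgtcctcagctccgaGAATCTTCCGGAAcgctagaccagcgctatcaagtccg
Hspb1, chr5:135887782-135887849, plus strand, 137 to 70 bases before its start: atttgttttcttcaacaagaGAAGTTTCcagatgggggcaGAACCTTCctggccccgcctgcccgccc
The Hspe1 stretch holds 2 overlapping matches and is also the Hspd1 promoter read from the other strand, because the Hspe1 start and 1 of the 2 listed Hspd1 starts lie 216 bases apart and point away from each other, so the matches of these genes are the same bases. The window of the other Hspd1 start, which lies inside the Hspe1 gene, holds no match of 3 units. Of the 4 genes, Hspe1 and Hsph1 were called lower with idelalisib, and Hspd1 and Dnajb6 were not called. Of the 14 tested genes with a 2-unit match, 6 were called lower, 2 higher and 6 neither way, while 22.4% of all genes tested were called lower and 22.2% higher. These genes are few and were not tested as a group, so nothing is read from their counts.

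The number of chaperone genes that changed was close to that of genes in general, but most of those that changed were lower. Of the 80 genes, 66 passed the count filter, and of these 9 were called higher and 21 lower with idelalisib (threshold 0.05 on the adjusted p of edgeR's quasi-likelihood test, with Benjamini-Hochberg adjustment over 14530 genes). That is 45.5% called, beside 44.6% of all genes tested, so the share of genes that moved is no result about chaperones. By direction, 13.6% were higher and 31.8% lower, beside 22.2% and 22.4% of all genes, and the median log2 fold change was -0.04 beside 0.01. CPM ranges of the groups did not overlap for 41 of the 66 genes (62.1%), beside 54.6% of all genes. Libraries were scaled with trimmed mean of M-values (TMM) factors. Scaling by library size alone moved the median of all genes to 0.16 and called 19 chaperone genes higher and 13 lower, so more lower than higher calls were not seen on that scale.

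Most changes were moderate. Called falls ranged from -3.38 to -0.21 and called rises from 0.22 to 0.93 on the log2 scale, and 4 genes, Hspb1, Hsf2, Hsph1 and Hsf4, fell by at least 1. Of the 36 genes not called, all but 1 had a log2 fold change between -0.21 and 0.24. The exception, Cct6b, a paralog of a CCT subunit known from testis, had 6, 12 and 18 reads in control and 23, 23 and 27 reads in idelalisib libraries (log2 difference 0.97 ± 0.42 SE, edgeR adjusted p = 0.0722). The 14 genes that did not pass the filter had at most 13 reads in any library. They were Cct8l1, Dnajb3, Dnajb7, Dnajb8, Dnajc22, Dnajc5b, Dnajc5g, Hsf3, Hsf5, Hspb2, Hspb3, Hspb7, Hspb8 and Hspb9, of which Dnajc5g, Hsf3, Hspb2 and Hspb3 had no read at all.

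**Figure D1:**
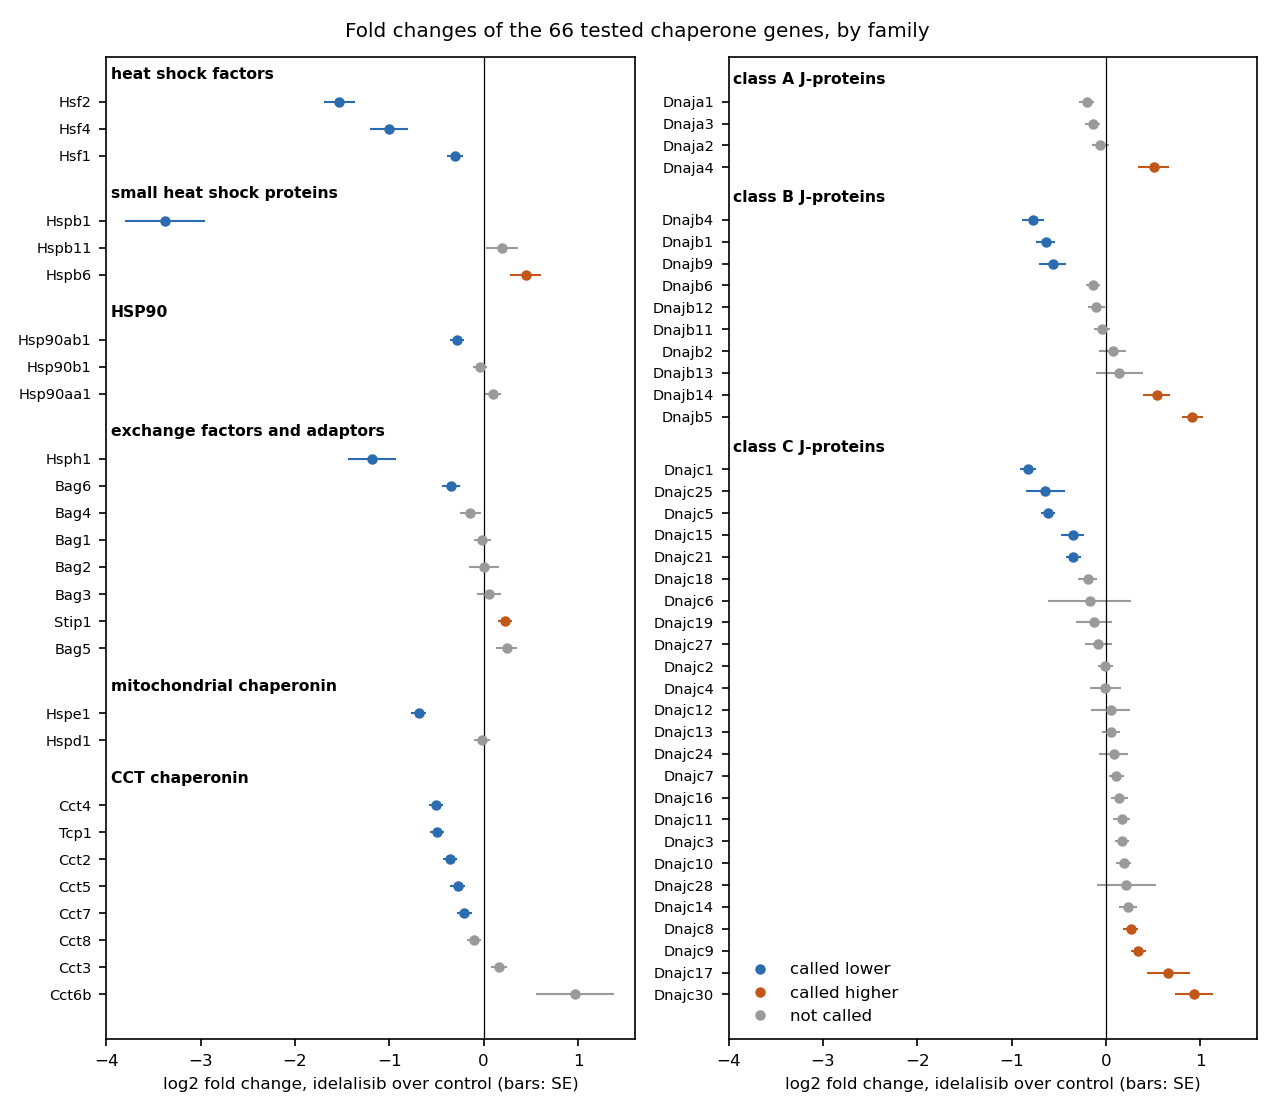
Log2 fold change of idelalisib over control on the TMM scale for the 66 tested genes, by family, with bars for the SE; blue points were called lower, orange points higher and grey points neither way at an edgeR adjusted p under 0.05. Hspb1 lies farthest from 0 at -3.38, the heat shock factors are all below 0, and the J-proteins spread to both sides between -0.83 and 0.93.

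All 3 heat shock factors with enough reads were called lower with idelalisib, beside 22.4% of all genes tested. Hsf2, a relative of heat shock factor 1 with which it can form mixed trimers (ENSMUSG00000019878, mm10 chromosome 10, 57486385 to 57513135), was at 133, 131 and 162 CPM in control replicates 1, 2 and 3 and at 43.7, 63.4 and 40.6 CPM in the idelalisib replicates. It fell 2.89-fold, from 142 ± 17.5 to 49.2 ± 12.4 CPM (SD, n = 3; log2 difference -1.53 ± 0.16 SE, edgeR adjusted p = 4.46e-05). Every treated library was far below every control, and idelalisib replicate 2 was the highest of the treated; without it the log2 fold change was -1.74. Hsf4, best known from the lens, was much scarcer, with 139, 96 and 105 reads in control and 54, 52 and 67 reads in idelalisib libraries, or 7.51 ± 1.18 and 3.75 ± 0.230 CPM (log2 difference -1.002 ± 0.20 SE, edgeR adjusted p = 0.001). Hsf1, the main activator of the heat shock response, moved least, from 50.3, 53.9 and 51.5 to 40.9, 41.4 and 43.96 CPM (log2 difference -0.30 ± 0.09 SE, edgeR adjusted p = 0.0111). Its groups did not overlap either, but its call was lost without control replicate 2 or idelalisib replicate 1 and when scaled by library size alone (adjusted p up to 0.168). Per length, Hsf1 stood at 0.512, 0.558 and 0.430 times the level of Hsf2 in the controls and at 1.27, 0.883 and 1.47 times in the treated cultures. The log2 ratio thus rose by 1.25, with no overlap between groups (2-sided exact permutation p = 0.1, n = 3 per group, the smallest this design allows). Of the 11 ratios and shares compared in this way, 9 had this p, which is 0.122 after Benjamini-Hochberg adjustment over the 11 exact permutation tests. Among the 9 is Cct3 over Cct4, which pairs the CCT subunits with the highest and lowest log2 fold change, so its separation adds no support. Hsf1 and Hsf2 likewise have the highest and lowest log2 fold change of the 3 tested factors, so the separation of their ratio adds none either. Hsf1 was thus less abundant per length than Hsf2 in every control library and in idelalisib replicate 2, and more abundant than Hsf2 in idelalisib replicates 1 and 3.

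Among the small heat shock proteins, which hold unfolded proteins without using ATP, Hspb1 had the largest fall of the set. Hspb1, also known as HSP25 or HSP27 (ENSMUSG00000004951, mm10 chromosome 5, 135887919 to 135889563), had 57, 58 and 61 reads in control and only 1, 8 and 8 reads in treated libraries, a change from 3.92 ± 0.404 to 0.370 ± 0.267 CPM (log2 difference -3.38 ± 0.42 SE, edgeR adjusted p = 2.75e-05). The fold was 10.4 on few treated reads, and its log2 value ranged from -3.76 to -2.88 as single libraries were left out. Its transcripts share 48.8% of their 50-base words with a pseudogene, Hsp25-ps1, on which only 2 reads were counted in all 6 libraries. Hspb6, known as HSP20, went the other way, from 7.82, 9.25 and 7.01 to 10.6, 9.84 and 12.4 CPM (log2 difference 0.45 ± 0.17 SE, edgeR adjusted p = 0.0409), with 5.31% of its exon bases opposite Proser3; this call did not survive leaving out replicate 1 or 3 of either group, nor DESeq2 (adjusted p up to 0.158). Hspb11, which despite its symbol is a component of the intraflagellar transport machinery, was at 169, 137 and 129 reads in control and 204, 134 and 169 reads in treated libraries and was not called (log2 difference 0.19 ± 0.17 SE, edgeR adjusted p = 0.367). The other small heat shock genes did not pass the filter.

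**Figure D2:**
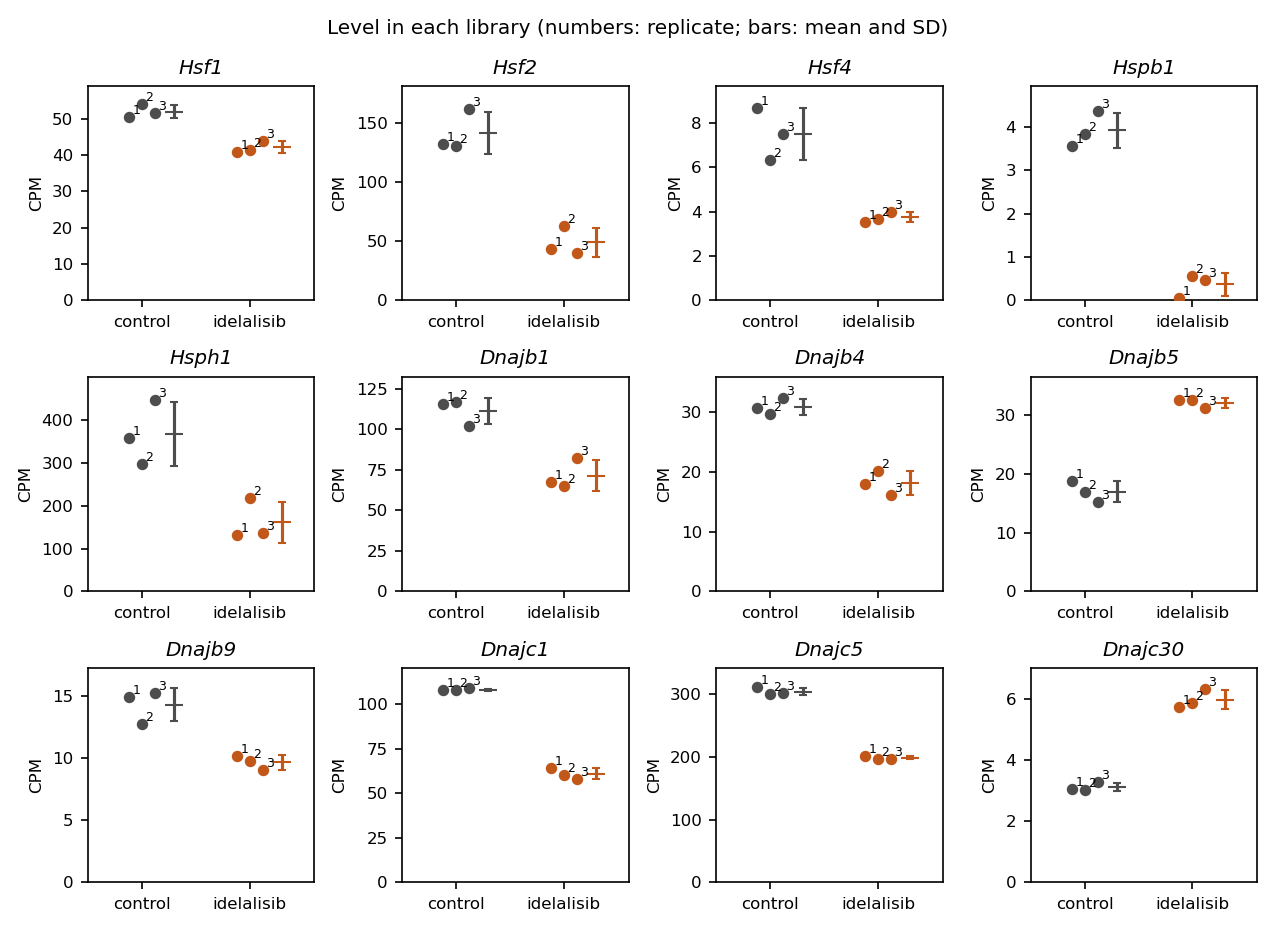
CPM on the TMM scale of 12 chaperone genes in each of the 3 control (grey) and 3 idelalisib (orange) libraries, numbered by replicate, with the mean and SD beside the points; every vertical axis starts at 0. Groups do not overlap in any panel; idelalisib replicate 2 is the highest treated library for Hsf2, Hsph1, Hspb1 and Dnajb4.

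Factors that drive the HSP70 cycle moved unevenly. Hsph1, the HSP110 nucleotide exchange factor (ENSMUSG00000029657, mm10 chromosome 5, 149614287 to 149636376), was at 359, 298 and 446 CPM in control and 131, 217 and 137 CPM in idelalisib libraries, a 2.28-fold fall (log2 difference -1.19 ± 0.25 SE, edgeR adjusted p = 0.0121). Controls spread widely, and idelalisib replicate 2 was again the highest of the treated, yet still below the lowest control. The call was lost without idelalisib replicate 3 (adjusted p = 0.0859), and the log2 fold change was -1.45 without idelalisib replicate 2. Hsph1 carries the element shown above just after its start. Stip1, the adaptor between HSP70 and HSP90, rose slightly, from 222, 220.2 and 221 to 245, 265 and 263 CPM (log2 difference 0.22 ± 0.07 SE, edgeR adjusted p = 0.0258), a call lost without any 1 control library (adjusted p of at least 0.0915). Bag6, which guides membrane proteins after their release from the ribosome, was at 333, 327 and 314 CPM in control and 254, 222 and 289 CPM in idelalisib libraries (log2 difference -0.35 ± 0.09 SE, edgeR adjusted p = 0.00763); it was not called when scaled by library size alone. The other Bag genes were not called: Bag1, Bag2, Bag3, Bag4 and Bag5 had log2 fold changes from -0.14 to 0.24. Bag3, which like Hspb1 and Hsph1 is a known target of heat shock factor 1, was at 20.5, 18.96 and 24.4 and 22.8, 20.4 and 23.1 CPM, a log2 difference of 0.06 (95% interval -0.21 to 0.32).

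HSP90 genes were among the most abundant of the set and changed little. Hsp90ab1, the constitutive cytosolic HSP90 (ENSMUSG00000023944, mm10 chromosome 17, 45567775 to 45573271), held 32.8% ± 1.26 to 33.9% ± 0.339 of all reads on the 80 genes (SD, n = 3, idelalisib and control). It was at 4537, 4688 and 4820 CPM in control and 3790, 3734 and 4035 CPM in idelalisib libraries, a 1.22-fold fall (log2 difference -0.28 ± 0.07 SE, edgeR adjusted p = 0.0067) that was not called when scaled by library size alone (adjusted p = 0.150). Hsp90aa1, its stress-inducible partner, was at 739, 733 and 741 and 783, 874 and 715 CPM, with overlapping groups and no call (log2 difference 0.10 ± 0.08 SE, edgeR adjusted p = 0.355). Per length, Hsp90aa1 amounted to 0.124, 0.119 and 0.117 of Hsp90ab1 in the controls and 0.158, 0.179 and 0.135 in the treated cultures. This ratio does not depend on scaling and was higher in every treated library (2-sided exact permutation p = 0.1, n = 3 per group, the smallest possible), but 47.5% of the words of Hsp90aa1 transcripts also occur in other genes, of which the most read pseudogene, Gm12346, had 581 reads in all. Hsp90b1, the HSP90 of the endoplasmic reticulum (ER), was at 488 ± 11.2 and 475 ± 10.3 CPM, a log2 difference of -0.04 (95% interval -0.20 to 0.11).

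The mitochondrial chaperonin pair came apart, as Hspe1 fell and its head-to-head neighbour Hspd1 was not called. Hspe1, the lid (ENSMUSG00000073676, mm10 chromosome 1, 55088132 to 55091307), fell from 279.9, 296 and 298 to 188, 185 and 169 CPM, 1.61-fold (log2 difference -0.69 ± 0.08 SE, edgeR adjusted p = 1.02e-05). Hspd1, the chamber (ENSMUSG00000025980, mm10 chromosome 1, 55077835 to 55088243), was at 400.4, 369 and 413 CPM in control and 379, 419 and 369 CPM in idelalisib libraries, a log2 fold change of -0.02 with a 95% interval of -0.19 to 0.16 (edgeR adjusted p = 0.863). Hspe1 was lower in all treated libraries, while the Hspd1 groups overlapped. The level of Hspe1 per length was 1.25, 1.44 and 1.29 times that of Hspd1 in control and 0.888, 0.789 and 0.823 times in idelalisib libraries, from above 1 in each control to below 1 in each treated library. The mean log2 ratio differed by -0.67 (2-sided exact permutation p = 0.1, n = 3 per group, the smallest possible). Both genes have processed pseudogenes, and their own exons overlap on opposite strands over 112 bases. Of their words, 39.7% for Hspd1 and 18.4% for Hspe1 also occur in other genes. For Hspe1 the gene sharing most words is AC117239.2, for which no counts were found under that name. The most read of the processed pseudogenes with counts, Hspd1-ps3, had 742 reads in all against 35609 for Hspd1.

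**Figure D3:**
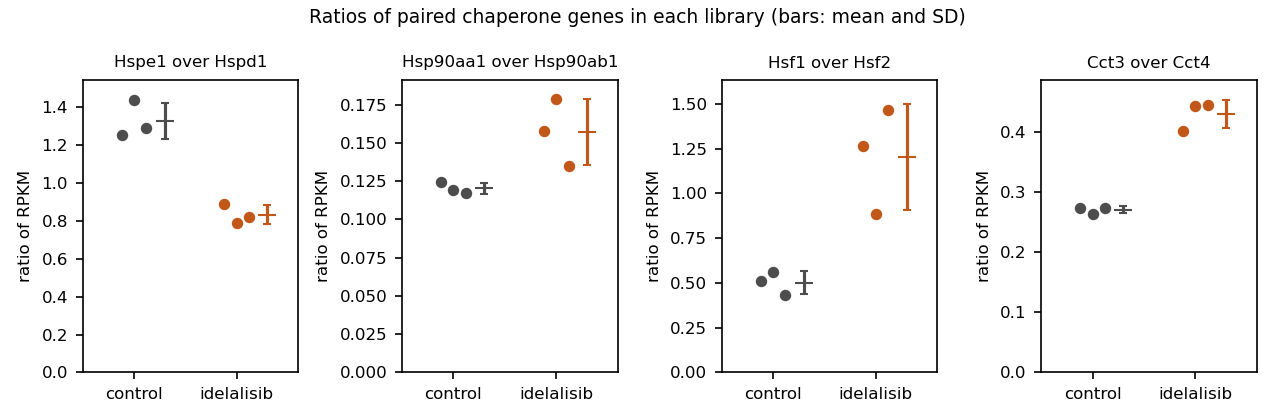
Ratio of RPKM (CPM per kilobase of gene length) between 2 genes in each control (grey) and idelalisib (orange) library, with mean and SD; the ratios do not depend on library scaling and every axis starts at 0. Hspe1 over Hspd1 is lower, and Hsp90aa1 over Hsp90ab1, Hsf1 over Hsf2 and Cct3 over Cct4 are higher, in every idelalisib library than in any control. Cct3 and Cct4 are the ring subunits of the set with the highest and lowest log2 fold change, and Hsf1 and Hsf2 are those of the tested heat shock factors.

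Most subunit genes of the cytosolic chaperonin fell, by unequal amounts. Of the 7 ring subunits in the set, 5 were called lower (71.4%) and none higher, beside 22.4% and 22.2% of all genes tested. The median of the log2 fold changes of the 7 was -0.28. Cct4 fell from 489, 504 and 514 to 341, 372 and 347 CPM (log2 difference -0.51 ± 0.07 SE, edgeR adjusted p = 0.000105), and Tcp1, the founding subunit, from 755, 778 and 778 to 537, 533 and 572 CPM (log2 difference -0.49 ± 0.07 SE, edgeR adjusted p = 0.000115), with 11.35% of the exon bases of Tcp1 opposite Acat3. Both stood clear of the controls in each treated library, as did Cct2, from 621, 661 and 674 to 485, 528 and 511 CPM (log2 difference -0.36 ± 0.08 SE, edgeR adjusted p = 0.00166). Cct5 and Cct7 had smaller falls of -0.28 and -0.21 (edgeR adjusted p = 0.00846 and 0.047). The call of Cct5 was lost without control replicate 3, that of Cct7 when any 1 library other than idelalisib replicate 3 was left out, and both when scaled by library size alone, which left 3 subunits lower and called 1, Cct3, higher. Cct8 and Cct3 were not called, at -0.10 (95% interval -0.26 to 0.05) and 0.16 (-0.02 to 0.34). The eighth subunit gene, Cct6a, is listed in the table as a processed transcript and so falls outside the set; it was at 193, 209.9 and 189.6 and 205, 221 and 207 CPM and was not called (log2 difference 0.09 ± 0.08 SE, edgeR adjusted p = 0.344).

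Per length, the subunit genes differed widely in level. Cct2 was highest at 255 ± 10.8 RPKM in control and Cct3 lowest at 32.3 ± 0.995 RPKM (SD, n = 3), with Cct5, Tcp1, Cct8, Cct4 and Cct7 in this order between them. The means of Cct8 and Cct4, 120.3 ± 1.43 and 119.5 ± 2.92 RPKM, did not differ beyond their spread. With idelalisib, Tcp1 at 109 ± 4.19 RPKM and Cct8 at 112 ± 3.30 RPKM were the neighbours within their spread, and Cct4 had dropped to 84.04 ± 3.88 RPKM. The highest subunit was 7.63, 8.20 and 7.89 times the lowest in control libraries and 5.82, 5.28 and 5.46 times in idelalisib libraries (2-sided exact permutation p = 0.1, n = 3 per group, the smallest possible). In each library these were Cct2 and Cct3, so this ratio describes these genes alone and not the spread of all 7. Cct3 also has the highest log2 fold change of the 7, so the separation of this ratio adds no support. The ratio of Cct3 to Cct4 went from 0.273, 0.263 and 0.273 to 0.402, 0.443 and 0.443. These genes have the highest and the lowest log2 fold change of the 7 subunits, so the separation of their ratio adds no support. RPKM here rests on the gene length in the table, which counts all exons of a gene, so a gene with long unused exons appears too low.

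**Figure D4:**
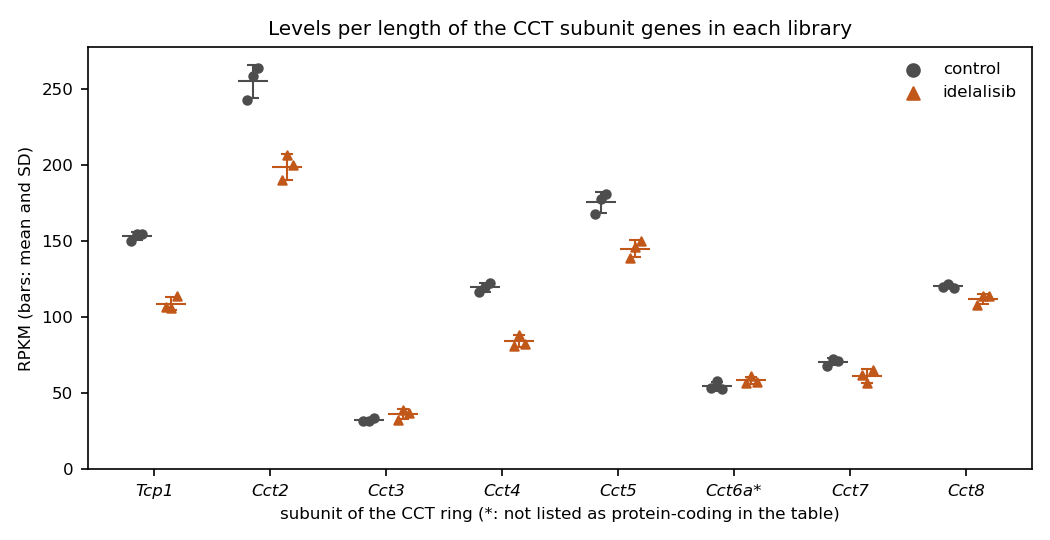
RPKM of the 8 ring subunit genes in each control (grey circles) and idelalisib (orange triangles) library, with mean and SD; the axis starts at 0, and Cct6a is outside the set. All but Cct3 and Cct6a are lower in each of the 3 treated libraries than in any control, by the largest factor for Cct4, and Cct3 and Cct6a overlap between groups.

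J-proteins moved to both sides and mostly a little. Of the 45 genes 39 were tested, of which 7 were called higher (17.9%) and 8 lower (20.5%). That is 38.5% called, beside 44.6% of all genes tested, of which 22.2% were higher and 22.4% lower. The median log2 fold change of the J-proteins was -0.01. Scaled by library size alone, 13 were higher and 5 lower, beside 4832 higher and 2219 lower of all genes. The remaining members outside this family, 27 tested genes, included 2 higher (7.41%) and 13 lower (48.1%).

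Class A, the J-proteins built like bacterial DnaJ, had 1 call among 4 genes (25%), beside 44.6% of all genes tested. Dnaja1, a main cytosolic partner of HSP70, was at 215, 192 and 215 CPM in control and 173, 194 and 172 CPM in idelalisib libraries; its groups overlapped and it missed the threshold (log2 difference -0.21 ± 0.08 SE, edgeR adjusted p = 0.0556). Dnaja2, another cytosolic partner, and the mitochondrial Dnaja3 were not called at -0.06 and -0.14. Dnaja4 was higher, at 8.70, 10.04 and 7.22 against 11.7, 11.7 and 13.5 CPM (log2 difference 0.50 ± 0.16 SE, edgeR adjusted p = 0.0203), but 44.05% of its exon bases lie opposite exons of Wdr61, and the counting is not stated to use strand, so reads of these genes cannot be told apart; also the call needed control replicates 1 and 3 and idelalisib replicate 3.

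Class B held larger changes in both directions among close relatives. Dnajb1, the classical heat-inducible HSP40 (ENSMUSG00000005483, mm10 chromosome 8, 83608193 to 83612653), fell from 116, 117 and 102 to 67.5, 64.8 and 82.4 CPM, 1.56-fold (log2 difference -0.64 ± 0.10 SE, edgeR adjusted p = 0.000181). Dnajb4, a cytosolic relative of Dnajb1 in sequence, fell from 30.7, 29.8 and 32.5 to 18.04, 20.3 and 16.2 CPM (log2 difference -0.77 ± 0.12 SE, edgeR adjusted p = 0.000116). Dnajb5, a further member of the same branch that is known to act on class II histone deacetylases (ENSMUSG00000036052, mm10 chromosome 4, 42949814 to 42959425), rose 1.89-fold, from 18.7, 16.9 and 15.2 to 32.5, 32.5 and 31.1 CPM (log2 difference 0.91 ± 0.11 SE, edgeR adjusted p = 2.30e-05). For all 3 relatives the groups stood apart, and these calls held in each of the 15 other fits, which changed the scaling, filter, tool or model or left out 1 library. Dnajb14, an ER membrane J-protein, rose from 11.5, 13.6 and 11.7 to 20.5, 17.8 and 15.1 CPM (log2 difference 0.54 ± 0.15 SE, edgeR adjusted p = 0.00842), while its nearest relative, Dnajb12, was not called (-0.11, edgeR adjusted p = 0.362). Dnajb6, which keeps aggregation-prone proteins soluble and has the element shown above, was at 133, 133 and 131 and 117, 123 and 119 CPM; its groups did not overlap, but the difference of -0.14 was not called (edgeR adjusted p = 0.14). Dnajb2 and the axonemal Dnajb13, at 0.07 and 0.14, were not called either.

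J-proteins of the ER were split. Among 11 such genes, 3 were called lower (27.3%) and 1 higher (9.09%), beside 22.4% and 22.2% of all genes tested. This direction depended on scaling. With upper-quartile scaling, 4 were higher and 3 lower, beside 3592 higher and 2961 lower of all genes. By library size alone, 5 were higher and 2 lower, beside 4832 and 2219. Dnajb9, also called ERdj4, a target of the unfolded protein response that restrains the sensor IRE1, went from 14.9, 12.7 and 15.2 to 10.2, 9.77 and 9.02 CPM (log2 difference -0.56 ± 0.14 SE, edgeR adjusted p = 0.00521). Dnajc1, an ER membrane J-protein that contacts ribosomes (ENSMUSG00000026740, mm10 chromosome 2, 18195654 to 18392830), fell 1.77-fold from 108, 108 and 109 to 64.1, 60.4 and 58.2 CPM (log2 difference -0.83 ± 0.08 SE, edgeR adjusted p = 2.94e-06); 6.43% of its exon bases lie opposite exons of Mllt10. Dnajc25 was scarcer, at 7.45, 7.33 and 7.22 CPM in control and 5.20, 3.33 and 5.49 CPM in treated libraries (log2 difference -0.64 ± 0.21 SE, edgeR adjusted p = 0.0217), and was no longer called when idelalisib replicate 2 or any 1 control was left out or when scaled by library size alone. The lumenal J-proteins Dnajb11, Dnajc3 and Dnajc10, which serve the ER HSP70 BiP, were not called at -0.04, 0.17 and 0.19. Of these, Dnajc10, which also reduces disulfides, was at 91.9, 91.6 and 89.5 and 105, 102 and 104 CPM without overlap (edgeR adjusted p = 0.0615). Dnajc14, Dnajc16 and Dnajc18 were not called (0.23, 0.14 and -0.19).

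Of the 7 mitochondrial J-proteins, 1 was higher and 1 lower (14.3% each way), beside 22.2% and 22.4% of all genes tested. Dnajc30, which is needed for respiratory complex I upkeep, had 49, 46 and 46 reads in control and 87, 83 and 106 in idelalisib libraries, a 1.91-fold rise from 3.13 ± 0.137 to 5.98 ± 0.314 CPM (log2 difference 0.93 ± 0.20 SE, edgeR adjusted p = 0.00173). Its groups stood clearly apart, though 26.25% of its exon bases lie opposite Bud23. Dnajc15, also called MCJ, a brake on complex I known from CD8 T cells, was at 31.3, 32.2 and 34.02 and 21.5, 30.3 and 24.6 CPM (log2 difference -0.35 ± 0.12 SE, edgeR adjusted p = 0.0314). That call was among the least stable: it was lost in 7 of the 15 other fits, 5 of them with 1 library left out, the exception being idelalisib replicate 2. Dnajc4, Dnajc11, Dnajc19 and Dnajc28 were not called, with log2 fold changes from -0.13 to 0.22.

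Class C genes with other sites of action also included clear changes. Dnajc5, the cysteine string protein of secretory vesicles (ENSMUSG00000000826, mm10 chromosome 2, 181520485 to 181555133), had the highest mean CPM of the J-protein genes in both groups. In idelalisib replicate 2, however, Dnaja2 was above it at 209 CPM. Dnajc5 was at 311, 301 and 301 CPM in control and 201, 197 and 197 CPM in idelalisib libraries (log2 difference -0.61 ± 0.07 SE, edgeR adjusted p = 1.61e-05). The 1.53-fold fall was tight within groups. Dnajc21, which acts in ribosome maturation, fell from 84.5, 82.6 and 82.1 to 67.9, 65.6 and 62.6 CPM (log2 difference -0.35 ± 0.08 SE, edgeR adjusted p = 0.00307), a call that, among the 15 other fits, was lost only when scaled by library size alone. Dnajc9, a chaperone of newly made histones, rose from 74.1, 70.9 and 72.3 to 91.8, 89.2 and 94.2 CPM (log2 difference 0.34 ± 0.08 SE, edgeR adjusted p = 0.00297). Dnajc8, a splicing-associated J-protein, rose from 111, 105 and 107 to 130.1, 131 and 126 CPM (log2 difference 0.26 ± 0.08 SE, edgeR adjusted p = 0.0135). Dnajc17, also tied to splicing, rose from 3.00, 2.44 and 3.43 to 4.48, 4.46 and 5.08 CPM (log2 difference 0.66 ± 0.22 SE, edgeR adjusted p = 0.0272), with 8.26% of its exon bases opposite Zfyve19. Each of these calls was lost without some libraries, control replicate 2 or 3 for Dnajc8 and control replicate 1 or 2 or idelalisib replicate 3 for Dnajc17, and Dnajc17 also lost its call with DESeq2. Dnajc7, which binds both HSP70 and HSP90, the ribosome-bound Dnajc2 and the endosomal Dnajc13 were not called at 0.11, -0.01 and 0.05. Neither were Dnajc6 (auxilin, which uncoats clathrin vesicles), Dnajc12, Dnajc24 and Dnajc27, with log2 fold changes from -0.18 to 0.08.

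Together, reads on the 80 genes made up 1.31 ± 0.0224% of each control library and 1.24 ± 0.0132% of each idelalisib library (SD, n = 3). The 45 J-proteins together held 0.236, 0.230 and 0.234% in control and 0.244, 0.246 and 0.234% in idelalisib libraries, which overlapped. Reads on the 7 CCT subunits took 0.321, 0.331 and 0.332% in control and 0.287, 0.298 and 0.300% in idelalisib libraries, without overlap (2-sided exact permutation p = 0.1, n = 3 per group, the smallest possible).

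Partner genes of these chaperones, taken from lists by function, are described by their counts, to be read beside the 22.4% lower, 22.2% higher and median of 0.01 of all genes tested. Of 16 tested HSP70 chaperones and cofactors, 7 were lower (43.8%) and 2 higher (12.5%), with a median of -0.19 on the log2 scale; the largest falls were those of the inducible Hspa1a and Hspa1b at -4.28 and -4.01, and of Hspa4l, a relative of Hsph1, at -1.57 (edgeR adjusted p = 0.0451). Hspa4l was at 440.4, 341 and 556 CPM in control and 109, 237 and 105 CPM in idelalisib libraries, highest in idelalisib replicate 2 among the treated as were Hsph1 and Hsf2, and it lost its call without any 1 library other than that one. HSP90 cochaperones were mixed, with 7 of 23 higher (30.4%) and 4 lower (17.4%). Ahsa1, the activator of the HSP90 ATPase, rose from 51.5, 54.8 and 53.04 to 72.1, 72.4 and 79.4 CPM (log2 difference 0.49 ± 0.08 SE, edgeR adjusted p = 0.000343), and Ruvbl1 of the R2TP complex was higher by 0.45. Prefoldin and tubulin cofactors, which work with CCT, included 2 higher (14.3%) and 1 lower (7.14%) of 14. These were the tubulin cofactor Tbcc at 0.69 (a call lost without control replicate 1 or idelalisib replicate 1), the CCT cofactor Pdcl at 0.55 and the tubulin cofactor Tbca at -0.36, the last not called when scaled by library size alone.

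In the ER and unfolded protein response list, 6 of 20 genes were lower and 2 higher (median -0.15); the lower share of 30% is near the 22.4% of all genes tested. The oxidase gene Ero1l went from 1298, 1272 and 1260 to 672, 518 and 608 CPM (log2 difference -1.09 ± 0.09 SE, edgeR adjusted p = 8.74e-07), and Ern1, which encodes IRE1, and Ppp1r15a, which relieves the translation block of the stress response, had log2 fold changes of -0.83 and -0.80. Among 16 mitochondrial folding and proteolysis genes, 7 were lower (43.8%) and 1 higher (6.25%), with a median of -0.25, led by the proteases Afg3l2 and Lonp1 at -0.56 and -0.49 and the import motor subunit Timm44 at -0.44. Scaled by library size alone, 3 of these 16 were lower and 1 higher, and the ER list had 5 in each direction. With that scaling, 2219 of all genes were lower and 4832 higher.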

How the data were processed

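The authors deposited 1 table of raw read counts per gene with 1 column per library, and each column was matched to its library by the name in the labels. The submitters' processing notes name the build mm10 and the tools featureCounts 1.5.0-p3, HISAT2 2.0.5 and fastp; annotation release, strand setting and handling of multi-mapping reads were not given in the sources used here. Per the file headers the table also holds gene symbols, biotypes, positions and lengths in bases, used as given; 77 of the 80 genes have identical coordinates in GENCODE M21, from which exon overlaps and shared 50-base words of transcripts were computed.

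Genes were filtered with filterByExpr (minimum count 10, minimum total 15), given TMM factors and compared in edgeR 4.0.16 (quasi-likelihood F test, robust, group alone) in R 4.3.3, with Benjamini-Hochberg adjustment over all 14530 tested genes and calls under 0.05. The SE is the absolute log2 fold change over the square root of F, and RPKM is the TMM-scaled CPM per kilobase. Ratios were compared with exact permutation tests in SciPy 1.17.1. No 2 libraries of a group were duplicates, with a chi-square per degree of freedom from 4.63 to 18.2. Intervals at a level of 95% are confidence intervals of the log2 fold change between groups, and they rest on the variation among these cultures alone. The scripts were tested on simulated counts. Values in every library are given for called members averaging at least 1 CPM with the 12 largest falls and 12 largest rises, for the member with the smallest p in each family and for 14 members regardless of outcome, and for each companion list the 3 called genes with the largest change are named, apart from 1 that is not reported here; values of other members were added after they were seen. The members and lists were chosen with earlier results of these data known. Alternatives were limma-voom (limma 3.58.1), DESeq2 1.42.0, scaling by RLE, by upper quartiles or by library size only, other filters, protein-coding genes alone, stricter thresholds, a replicate block and leaving out each library.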

Additional observations from a re-analysis of the deposited data

How the results depend on the processing

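Of the 30 called chaperone genes, 16 (12 lower and 4 higher) kept their call in all 15 other fits, and no call changed direction. Of the other 14, 8 lost the call when scaled by library size alone and 11 without some library. That scaling called 19 members higher and 13 lower, and 4832 and 2219 of all genes, or 59.4% of the called members on the higher side against 30% with TMM factors. At an adjusted p under 0.01, 4 members were higher and 2138 of all genes were higher; requiring a log2 fold change of at least 1 left 0 members higher and 4 lower, with 838 higher and 866 lower of all genes. Leaving out 1 library gave 5 to 11 members higher, the fewest without control replicate 1. With the replicate block, 7 members were higher and 20 lower, with Stip1, Hspb6 and Cct7 no longer called. The deviations of same-numbered libraries correlated at 0.08, -0.13 and -0.10, and 2 of the 6 libraries correlated best with their own number. With 3 libraries per group, these values cannot decide whether the numbers pair the samples. The causes were not tested. Depth limits the scarce genes: the 14 untested ones had at most 13 reads in a library.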
